A study of Homo sapiens with 40 samples.

Results

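Cells that lack oxygen switch on a set of genes for glucose uptake, glycolysis, blood vessel growth and collagen processing. The 42 genes described here are such hypoxia response and glycolysis genes, chosen by symbol with earlier results of these data known. Of the 42, 40 were measured, on 45 probe sets of the 21214 that carry a gene symbol. CA9 and SLC16A3 were not analysed here. The 40 fall into 8 role groups: oxygen sensing, cell stress with mitophagy and chromatin, pH regulation, secreted factors, collagen processing, glucose uptake with upper glycolysis, lower glycolysis with lactate, and the pyruvate dehydrogenase kinases. PGAM1 was read on 5 probe sets that all name PGAM4 as well, a near-identical copy, so that its value is uncertain.

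The cells were MDA-MB-231, an established line from a human triple-negative breast tumour, grown on dishes in serum-containing medium. Lot I held cells given solvent only (mock-treated control), 2 µM fluvastatin or 30 µM zoledronate for 12 h or 24 h. In lot II cells were harvested after 48 h with solvent or 30 µM zoledronate, or after 24 h with solvent or 100 µM zoledronate. Each of the 10 groups had 4 arrays, 40 in all. Fluvastatin is a statin and blocks HMG-CoA reductase, an early enzyme of the mevalonate pathway. Zoledronate is a bisphosphonate and blocks farnesyl diphosphate synthase, a later enzyme of the same pathway. No group was labelled as hypoxic, and every group, controls included, was 1 cell line in the same medium. All 48 h and all 100 µM arrays belong to lot II, so dose, time and lot cannot be told apart in comparisons across the lots.

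Hypoxia-inducible factor (HIF) is a pair of an alpha subunit, HIF1A or EPAS1 (also called HIF-2 alpha), and the stable partner ARNT. In cells with enough oxygen the prolyl hydroxylases EGLN1 and EGLN3 mark the alpha subunit, and the VHL complex then has it destroyed. Without oxygen the alpha subunit lasts, enters the nucleus and binds short DNA motifs near its target genes. This control acts mainly on the protein, which these arrays do not measure. The same targets are also read by other factors, and many tumour lines express glycolysis genes at a high level without hypoxia.

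The core of the HIF motif is written ACGTG or GCGTG. Both were searched on both strands in RefSeq promoters (GRCh38.p14) that run from 250 bases before the start to 50 bases after it. Of the 42 symbols, 36 matched an entry, and NDRG1, BNIP3L, STC1, LOXL2, VEGFA and SLC2A3 did not. At least 1 of the 2 motifs was present for 33 of the 36 genes (91.7%), against 52.4% of 27305 genes in the table. Members have more windows per gene, and counted by window the shares were 75.0% of 60 and 48.4% of 35116. ACGTG alone was present for 58.3% of them, against 24.9% in the table. The genes were put together as known HIF targets, so this share describes the choice, and a match of letters is not a bound site. For 27 members the table has a window at the outermost start of the gene. Of these, the bases before the start are shown for the 8 with the largest change under 100 µM zoledronate, and for ENO1 and SLC2A1, relatives of ENO2 and SLC2A3 that were not called there. They run 5′ to 3′ along the gene's strand, with every match to the motif or its reverse complement in capitals.
ALDOC (chr17:28576896-28577145, GRCh38.p14, minus strand): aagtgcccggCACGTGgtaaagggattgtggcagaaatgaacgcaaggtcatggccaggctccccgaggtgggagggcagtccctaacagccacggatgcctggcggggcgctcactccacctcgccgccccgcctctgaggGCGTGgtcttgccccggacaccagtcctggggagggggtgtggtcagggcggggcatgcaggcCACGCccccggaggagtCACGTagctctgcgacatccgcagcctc
LOX (chr5:122078260-122078509, GRCh38.p14, minus strand): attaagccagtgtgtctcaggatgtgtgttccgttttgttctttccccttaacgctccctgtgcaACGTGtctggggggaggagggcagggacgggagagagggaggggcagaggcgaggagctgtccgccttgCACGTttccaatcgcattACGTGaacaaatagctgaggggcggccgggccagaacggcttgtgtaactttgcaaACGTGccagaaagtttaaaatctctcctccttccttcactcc
P4HA1 (chr10:73096867-73097116, GRCh38.p14, minus strand): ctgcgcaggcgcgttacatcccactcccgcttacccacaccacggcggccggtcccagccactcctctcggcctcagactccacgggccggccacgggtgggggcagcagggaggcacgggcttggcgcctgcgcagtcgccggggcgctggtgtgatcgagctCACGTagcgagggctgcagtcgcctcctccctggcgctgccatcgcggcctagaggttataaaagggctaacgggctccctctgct
EPAS1 (chr2:46297157-46297406, GRCh38.p14, plus strand): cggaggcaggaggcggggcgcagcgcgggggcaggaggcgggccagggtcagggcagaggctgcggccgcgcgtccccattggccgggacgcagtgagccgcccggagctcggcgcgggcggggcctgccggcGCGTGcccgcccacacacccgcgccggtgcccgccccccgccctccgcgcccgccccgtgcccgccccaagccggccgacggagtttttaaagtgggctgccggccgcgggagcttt
ENO2 (chr12:6914330-6914579, GRCh38.p14, plus strand): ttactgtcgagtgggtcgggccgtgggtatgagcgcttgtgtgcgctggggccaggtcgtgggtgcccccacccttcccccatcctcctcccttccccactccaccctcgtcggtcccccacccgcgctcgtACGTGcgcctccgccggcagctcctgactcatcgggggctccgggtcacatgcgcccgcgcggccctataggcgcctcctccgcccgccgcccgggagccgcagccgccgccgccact
BNIP3 (chr10:131981924-131982173, GRCh38.p14, minus strand): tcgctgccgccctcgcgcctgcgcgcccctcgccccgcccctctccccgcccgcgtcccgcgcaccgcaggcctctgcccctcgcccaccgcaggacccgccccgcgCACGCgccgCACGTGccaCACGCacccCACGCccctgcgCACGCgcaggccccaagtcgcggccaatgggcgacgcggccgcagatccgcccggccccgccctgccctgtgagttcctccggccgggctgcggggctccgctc
PDK1 (chr2:172555123-172555372, GRCh38.p14, plus strand): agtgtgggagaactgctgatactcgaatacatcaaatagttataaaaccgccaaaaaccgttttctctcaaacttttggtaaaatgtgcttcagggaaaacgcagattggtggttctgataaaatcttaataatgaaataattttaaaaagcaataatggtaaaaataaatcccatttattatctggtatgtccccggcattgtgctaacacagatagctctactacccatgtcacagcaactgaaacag
ANKRD37 (chr4:185396591-185396840, GRCh38.p14, plus strand): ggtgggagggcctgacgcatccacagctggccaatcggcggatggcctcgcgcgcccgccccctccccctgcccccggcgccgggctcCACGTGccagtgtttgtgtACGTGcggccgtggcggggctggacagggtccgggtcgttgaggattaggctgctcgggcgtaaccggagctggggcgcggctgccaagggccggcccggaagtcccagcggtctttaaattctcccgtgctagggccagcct
ENO1 (chr1:8878687-8878936, GRCh38.p14, minus strand): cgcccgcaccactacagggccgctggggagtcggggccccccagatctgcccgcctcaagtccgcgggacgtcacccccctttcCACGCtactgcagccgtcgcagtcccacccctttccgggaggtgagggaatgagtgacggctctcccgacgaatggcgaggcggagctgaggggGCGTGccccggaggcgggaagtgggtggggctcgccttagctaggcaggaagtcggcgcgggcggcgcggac
SLC2A1 (chr1:42958869-42959118, GRCh38.p14, minus strand): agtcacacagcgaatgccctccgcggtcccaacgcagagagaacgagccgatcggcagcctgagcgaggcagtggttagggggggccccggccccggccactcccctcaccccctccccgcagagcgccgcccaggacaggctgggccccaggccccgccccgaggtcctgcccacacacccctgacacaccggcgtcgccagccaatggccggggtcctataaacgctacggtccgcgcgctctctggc

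Counting overlapping matches once, the ALDOC and LOX stretches hold 4 matches each, P4HA1, EPAS1 and ENO2 hold 1 each, BNIP3 holds 5, PDK1 holds 0 and ANKRD37 holds 2. ENO1, which was not called, also holds 2 matches, and SLC2A1 holds 0. The nearest match lies 23 bases before the start in ALDOC, 37 in LOX, 67 in ENO1, 81 in P4HA1, 99 in BNIP3, 112 in EPAS1, 113 in ENO2 and 138 in ANKRD37. Over all 27 genes with such a stretch, 23 hold a match. Those without were 3 of the 22 that rose under 100 µM zoledronate (PDK1, EGLN3 and HK1) and 1 of the 4 not called (SLC2A1). This holds for the outermost start only. At a start further into the gene, PDK1 holds 2 matches, the nearest 3 bases before that start. HK1 holds 1 match before 1 of its further starts, and neither window is shown here.

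Values are log2 signals made by the submitters with RMA, and the median of an array lay between 6.19 and 6.33. Any 2 arrays correlated at 0.9702 or higher, and no pair was identical. Of the markers read for the cell line, VIM and CD44, genes of mesenchymal cells, stood at the 99.4 and 97.4 percentiles of all probe sets. The epithelial gene CDH1 stood at the 17.3 percentile, and the hormone receptors ESR1 and PGR at 19.2 and 16.1. EPCAM, also an epithelial gene, stood at the 68.3 percentile and the receptor ERBB2 at 64.7, so that these 2 were not low. Markers of blood cells averaged 5.27 to 5.54 per array under 100 µM zoledronate and 4.95 to 5.11 in its controls. Of these 6 markers, 2 rose (LYZ by 1.93 and CD14 by 0.42), where 31.4% of all probe sets were called in either direction. Of 10 fibroblast and endothelial markers, 2 rose, PECAM1 by 1.30 and PDGFRB by 0.48, and KDR fell by 0.51, beside the same share. DCN and LUM lay at 3.16 to 3.85 and 2.68 to 3.59 in all 40 arrays. Others of that list were not as low: COL1A1 lay at 7.06 to 7.47, the 55.4 percentile, and KDR stood at the 44 percentile. LYZ and PECAM1 also rose with fluvastatin at 24 h, by 0.71 and 0.98, and at 48 h of 30 µM zoledronate, by 0.74 and 0.59. Their part in the results below was not tested.

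Most of these genes were higher after 24 h of 100 µM zoledronate. There 31 of the 40 rose and 1, ADM, fell, where 31.4% of all 21214 probe sets passed in either direction and 15.2% were higher. The members' median change was 0.60 on the log2 scale, against 0.01 over all probe sets. The 4 treated arrays lay wholly above the 4 control arrays for 31 of 40 members, against 15.5% of all probe sets. The median change of the members was positive in each pair of treated and control dishes, from 0.50 to 0.71. A change is the mean over 4 pairs of treated minus control, tested with limma and called at a Benjamini-Hochberg adjusted p under 0.05 over all 21214 probe sets. Each value marked SE comes from the fit over all 40 arrays. It is not the spread of the 4 pairs of that comparison, which can be wider. The arrays read whole dishes, so that more RNA per cell and more cells that make it cannot be told apart. Counts of called members lay between 29 and 34 under every alternative and with each replicate left out. The call of ADM was lost without replicate 1, 2 or 4, without the pairing, after renewed quantile normalization and with the 8 arrays alone. That of ALDOA was lost without replicate 2 or 3 and without the pairing, and that of GPI without replicate 2.

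**Figure D1:**
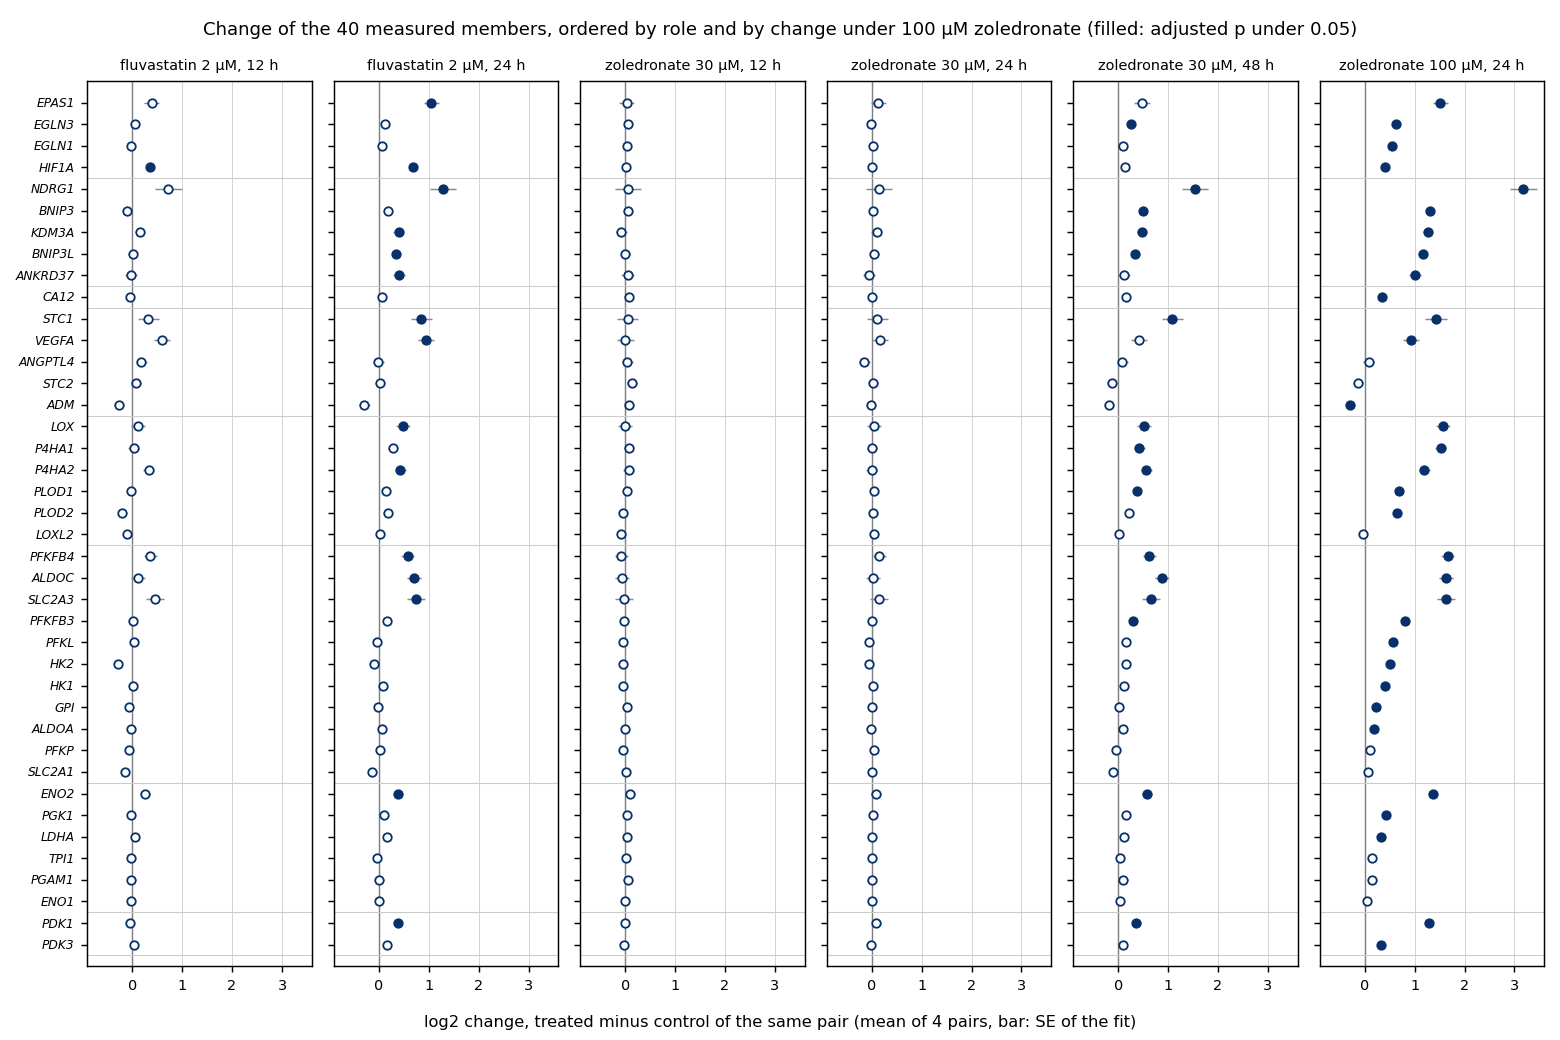
Change of each of the 40 measured genes in the 6 treated groups, in log2 units of treated minus control (mean of 4 pairs, bars: SE of the fit, filled: adjusted p under 0.05), ordered by role. Filled points number 1 and 15 for fluvastatin at 12 h and 24 h, 0 and 0 for 30 µM zoledronate at 12 h and 24 h, 16 at 48 h and 32 under 100 µM.

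Fluvastatin at 24 h raised a smaller set. Of the 40, 15 rose and 0 fell, where 9.86% of all probe sets passed in either direction, 6.41% higher and 3.46% lower. With each array centred on its median, 1121 of 2105 calls over all probe sets were higher, against 1359 of 2092 as deposited, and 15 members still rose. The groups did not overlap for 6 members (EPAS1, VEGFA, PFKFB4, ALDOC, ENO2 and LDHA), against 4.65% of all probe sets with treated higher. Replicate 1 carried much of this count: the members' median change was 0.27 in pair 1 and 0.09 to 0.15 in pairs 2 to 4. Without replicate 1, 3 of the 15 still passed (HIF1A, EPAS1 and VEGFA), and all 15 kept their sign. Calls over all probe sets fell as well, from 2092 to 302. Without replicate 3 the calls of BNIP3L and LOX were lost, and without replicate 4 those of LOX, ANKRD37, KDM3A and ENO2. Without the pairing 8 passed, where 714 of all 21214 probe sets did. With the spread taken from the 8 compared arrays alone 0 passed, where 2 of all 21214 probe sets did.

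At 12 h of fluvastatin HIF1A was the 1 member that rose, where 0.815% of all probe sets passed and 0.297% were higher. Its 4 treated arrays read 10.87, 10.66, 10.59 and 10.99, and its controls 10.39, 10.36, 10.28 and 10.64. The groups overlap, but each treated array was above its own control, by 0.29 to 0.48. The change was 0.36 ± 0.07 (SE of the fit, adjusted p = 0.012), and it did not pass when any 1 replicate was left out (0 members called each time). In these fits 0 to 59 of all 21214 probe sets passed, against 173 with all replicates. After median centring 2 members passed, 1 higher and 1 lower, where 252 of all 21214 probe sets did. NDRG1, VEGFA, P4HA2, SLC2A3 and PFKFB4 did not pass at 12 h, although their treated arrays did not overlap the controls (5 members, against 2.43% of all probe sets). Their changes were 0.72, 0.59, 0.33, 0.46 and 0.36.

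Zoledronate at 30 µM gave 0 called members at 12 h and 0 at 24 h, where 0% of all probe sets passed at either time. At an unadjusted p under 0.05 there were 605 probe sets at 12 h and 1041 at 24 h, with 0 members among them at each time. No other fit called a member at these times. The members' changes lay between −0.08 and 0.13 at 12 h and between −0.15 and 0.16 at 24 h, with medians of 0.01 and 0.02. No member had treated arrays wholly above its controls at either time (0.429% and 0.684% of all probe sets did).

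At 48 h of 30 µM zoledronate 16 of 40 rose and 0 fell, where 7.23% of all probe sets passed in either direction, 3.07% higher and 4.16% lower. After median centring 521 of 1722 calls over all probe sets were higher, against 651 of 1533 as deposited, and 16 members rose. The 4 treated arrays lay wholly above the controls for 12 members, against 3.85% of all probe sets. The members' median change was 0.16 over all, and 0.11 to 0.24 in single pairs. Without replicate 1, 9 of the 16 passed: EGLN3, NDRG1, BNIP3, STC1, P4HA2, PLOD1, PFKFB4, ALDOC and ENO2. Calls over all probe sets fell there from 1533 to 555. EGLN3, LOX and SLC2A3 lost their calls without replicate 2, BNIP3L without replicate 3 and P4HA1 without replicate 4. Without the pairing 8 passed, where 357 of all 21214 probe sets did. With the 8 compared arrays alone 0 passed, as did 0 of all 21214 probe sets.

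Among the oxygen-sensing genes, the 2 alpha subunits and the 2 hydroxylases all rose under 100 µM zoledronate, EPAS1 the most. Of all probe sets 15.2% were higher there. EPAS1 read 9.36, 9.27, 9.14 and 9.25 under 100 µM zoledronate and 7.88, 7.58, 7.56 and 7.93 in the paired controls. All treated arrays were above all controls, and the change was 1.51 ± 0.15 (SE of the fit, adjusted p = 6.27e-08), a 2.85-fold signal. HIF1A read 11.23, 11.21, 11.20 and 11.32 against 10.65, 10.79, 10.89 and 11.00. Here too the groups did not overlap, and the change was 0.41 ± 0.07 (adjusted p = 3.11e-05). EPAS1 changed more than HIF1A in 4 of 4 pairs, by 1.10 ± 0.19 (SD) on average.

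EGLN1, the main hydroxylase, read 9.64, 9.74, 9.83 and 9.72 under 100 µM zoledronate against 9.18, 9.23, 9.14 and 9.23 in its controls. All treated arrays were the higher ones, and the change was 0.54 ± 0.07 (SE, adjusted p = 1.19e-06). EGLN3, itself a known HIF target, read 7.53, 7.76, 7.80 and 7.48 against 6.90, 7.12, 7.00 and 7.04, again without overlap. Its change was 0.63 ± 0.07 (adjusted p = 9.93e-08), and it also rose at 48 h of 30 µM zoledronate, by 0.26. Under fluvastatin at 24 h EGLN1 and EGLN3 did not pass, with changes of 0.06 and 0.13.

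Fluvastatin at 24 h raised both alpha subunits, where 6.41% of all probe sets were higher. HIF1A read 11.29, 10.78, 11.20 and 11.46 against 10.34, 10.24, 10.52 and 10.92 in its controls. Replicate 2 of the treated cells was below replicate 4 of the controls, yet each treated array was above its own control, by 0.54 to 0.95. The change was 0.68 ± 0.07 (SE, adjusted p = 5.44e-06). EPAS1 read 9.30, 8.72, 9.06 and 9.41 against 7.29, 8.13, 8.27 and 8.59, with no overlap, and its change was 1.05 ± 0.15 (adjusted p = 2.16e-04). Pair 1 gave its highest difference, 2.01, and the lowest was 0.60. At 48 h of 30 µM zoledronate HIF1A (0.14, adjusted p = 0.23) and EPAS1 (0.48, adjusted p = 0.058) did not pass, although the EPAS1 arrays did not overlap.

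NDRG1, a stress-responsive gene often used as a marker of hypoxia, had the largest change of all 40 members under 100 µM zoledronate, and it ranked 2 among the 21214 probe sets. It read 11.82, 12.32, 12.27 and 12.20 against 8.41, 8.74, 9.24 and 9.51 in its controls. The groups lay far apart, at a change of 3.18 ± 0.26 (SE, adjusted p = 4.51e-09), or 9.06-fold. At 48 h of 30 µM zoledronate it read 10.83, 11.81, 11.19 and 11.18 against 8.58, 9.63, 10.23 and 10.42. Again all treated arrays were higher, by 1.54 ± 0.26 (adjusted p = 0.0010), and the 48 h controls spread widely. Fluvastatin gave 11.76, 9.32, 10.15 and 10.34 at 24 h against 9.10, 8.79, 9.16 and 9.41. Replicate 2 was inside the control range and replicate 1 stood highest, and the change of 1.28 ± 0.26 (adjusted p = 0.0035) did not pass without replicate 1.

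The mitophagy receptors BNIP3 and BNIP3L, the histone demethylase KDM3A and the ankyrin repeat gene ANKRD37 completed this group. All of them rose under 100 µM zoledronate, where 15.2% of all probe sets were higher. BNIP3 read 11.42, 11.84, 11.75 and 11.80 against 10.41, 10.31, 10.45 and 10.42. The controls spanned little, all treated arrays were higher, and the change was 1.30 ± 0.09 (SE, adjusted p = 1.91e-10). KDM3A rose by 1.26, BNIP3L by 1.16 and ANKRD37 by 1.00. With 30 µM zoledronate for 48 h BNIP3 read 10.95, 11.03, 11.04 and 11.25 against 10.50, 10.58, 10.62 and 10.58. No arrays overlapped there, at a change of 0.49 ± 0.09 (adjusted p = 0.0012), and KDM3A and BNIP3L rose as well, by 0.47 and 0.34. BNIP3 was the member of this group that did not pass with fluvastatin at 24 h (0.18, adjusted p = 0.20), while KDM3A, ANKRD37 and BNIP3L rose by 0.40, 0.41 and 0.35. With fluvastatin 6.41% of all probe sets were higher at that time.

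**Figure D2:**
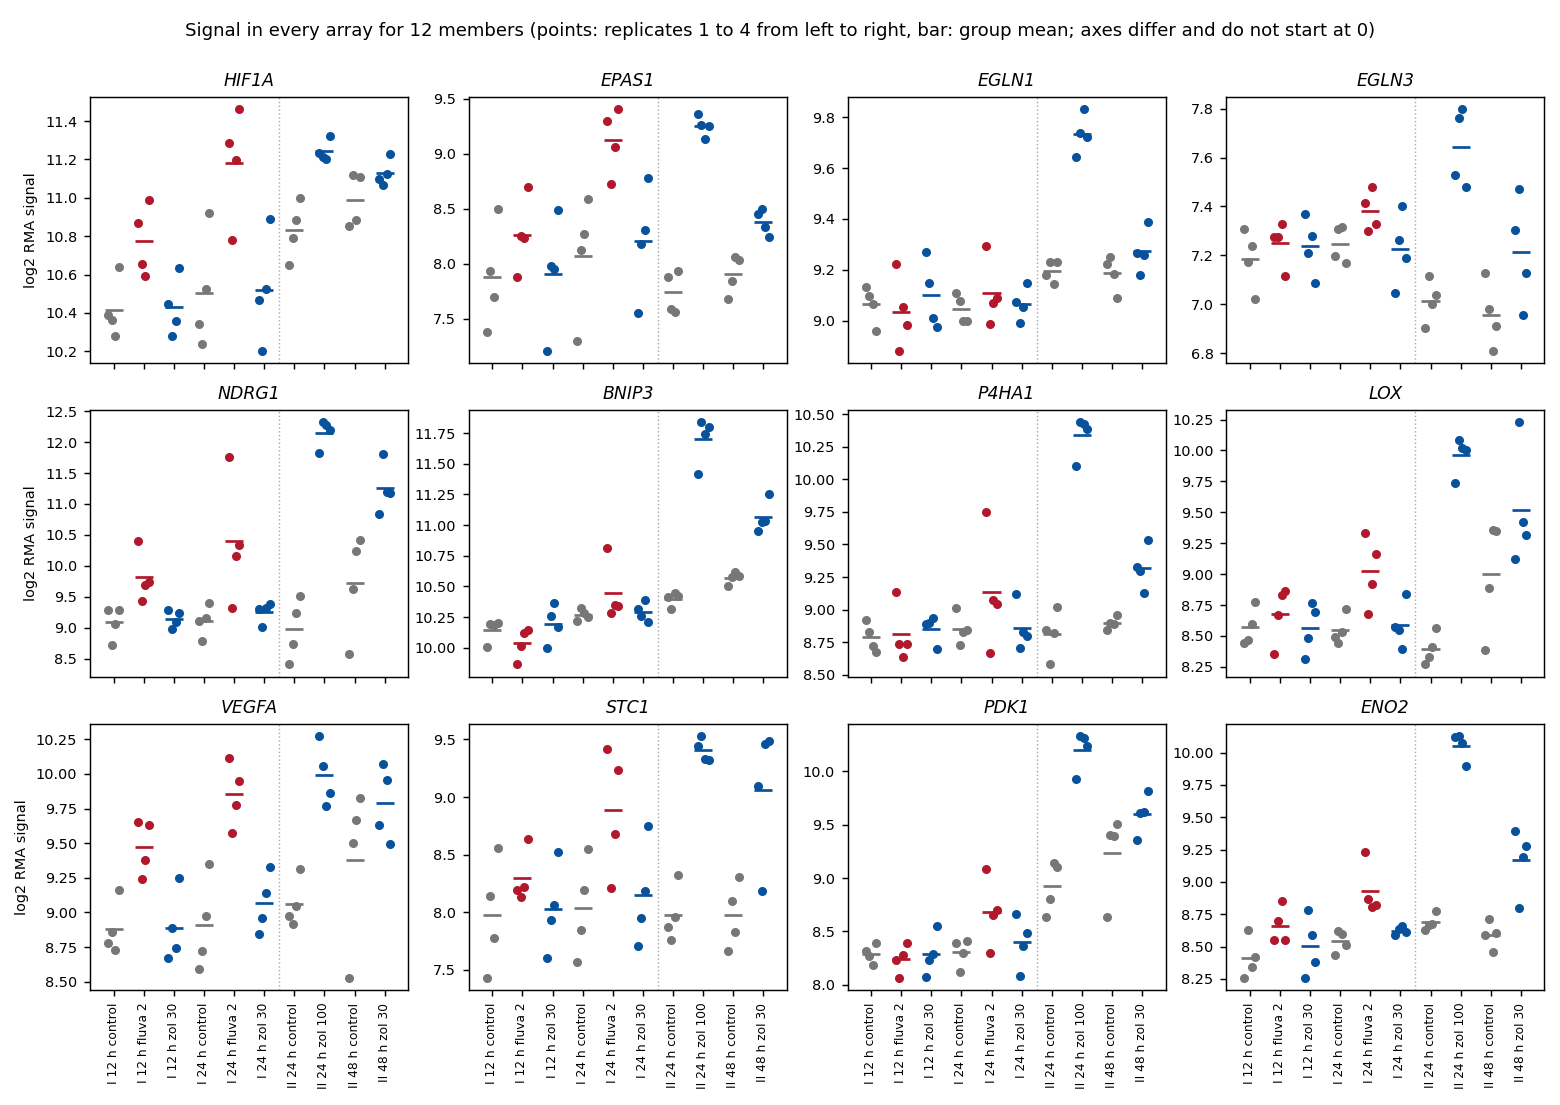
Log2 RMA signal of 12 members in every array, by lot (I or II), time and agent (grey: control, red: fluvastatin, blue: zoledronate), with doses in µM. Points are replicates 1 to 4 and bars are group means. For 100 µM zoledronate in lot II all 4 points lie above the 4 controls beside them in each of the 12 plots. Most of the 12 were chosen for their change in that comparison. The same held for 31 of the 40 members and 15.5% of all probe sets.

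Of the 5 secreted factors, 2 rose under 100 µM zoledronate, where 15.2% of all probe sets were higher and 16.3% lower. STC1, the hormone stanniocalcin 1, read 9.44, 9.53, 9.33 and 9.32 against 7.87, 7.76, 7.95 and 8.32. Its groups did not overlap, and its change was 1.43 ± 0.21 (SE, adjusted p = 1.19e-05). VEGFA, the main growth factor for blood vessels, read 10.28, 10.06, 9.77 and 9.86 against 8.97, 8.92, 9.04 and 9.31. All treated arrays were higher, by 0.93 ± 0.16 (adjusted p = 8.29e-05). ADM, which encodes the vasodilator adrenomedullin and is a common hypoxia marker, went against its list: it fell by 0.29 ± 0.10 (adjusted p = 0.032), was lower in 3 of 4 pairs, and its groups overlapped. ANGPTL4 (0.08) and STC2 (−0.13) did not pass.

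VEGFA also rose with fluvastatin, by nearly the same amount as with 100 µM zoledronate (difference of effects −0.02 ± 0.23, SE). Fluvastatin cells read 10.12, 9.58, 9.78 and 9.95 at 24 h against 8.59, 8.72, 8.97 and 9.35. All treated arrays were higher, and the change was 0.95 ± 0.16 (SE, adjusted p = 9.26e-04). STC1 read 9.42, 8.21, 8.68 and 9.24 against 7.56, 7.84, 8.20 and 8.55, with overlap through replicate 2. It rose by 0.85 ± 0.21 (adjusted p = 0.013) but did not pass without replicate 1. At 48 h of 30 µM zoledronate STC1 read 9.09, 8.19, 9.46 and 9.49 against 7.67, 8.10, 7.83 and 8.30. Replicate 2 was the one treated array inside the control range, and the change was 1.08 ± 0.21 (adjusted p = 0.0031). VEGFA read 9.63, 10.07, 9.96 and 9.50 at 48 h against 8.53, 9.50, 9.67 and 9.83. These groups overlapped, replicate 4 was lower than its control, and the change of 0.41 ± 0.16 did not pass (adjusted p = 0.14).

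The carbonic anhydrase CA12, which handles acid at the cell surface, was the 1 measured gene of pH regulation. It read 7.97, 8.43, 8.21 and 8.22 under 100 µM zoledronate against 7.58, 7.78, 7.93 and 8.17. The groups overlapped through control replicate 4, each treated array was above its own control, and the change was 0.34 ± 0.08 (SE, adjusted p = 0.0020). It did not pass at 48 h of 30 µM zoledronate (0.16) or with fluvastatin at 24 h (0.06).

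Collagen-modifying enzymes moved together under 100 µM zoledronate: 5 of 6 rose, against 15.2% of all probe sets. P4HA1, a prolyl hydroxylase of collagen, read 10.10, 10.44, 10.42 and 10.39 against 8.85, 8.58, 8.82 and 9.02. The gap between the groups was wide, at a change of 1.52 ± 0.10 (SE, adjusted p = 2.78e-10), or 2.87-fold. LOX, which crosslinks collagen outside the cell, read 9.74, 10.08, 10.02 and 10.00 against 8.27, 8.33, 8.41 and 8.56. It did not overlap either, at 1.57 ± 0.14 (adjusted p = 1.37e-08). The second collagen prolyl hydroxylase P4HA2 rose by 1.20, and the lysyl hydroxylases PLOD1 and PLOD2 by 0.68 and 0.64. LOXL2, a relative of LOX, did not pass (−0.04), and LOX changed more than LOXL2 in 4 of 4 pairs, by 1.61 ± 0.08 (SD).

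In the other groups the collagen enzymes changed less. P4HA1 at 48 h of 30 µM zoledronate read 9.33, 9.30, 9.13 and 9.54 against 8.84, 8.90, 8.89 and 8.96, all higher, for a change of 0.42 ± 0.10 (SE, adjusted p = 0.014). P4HA2, PLOD1 and LOX also rose there, by 0.56, 0.38 and 0.52, and LOX overlapped its controls and was not higher in replicate 4. LOX read 8.39 in replicate 1 of the 48 h controls and 8.89 to 9.36 in the others, against 8.27 to 8.56 in the 24 h controls of lot II. That difference between control times, 0.61 ± 0.18, did not pass (adjusted p = 0.078), but it did with the replicate number as a block and without replicate 1. With fluvastatin at 24 h LOX rose by 0.48 and P4HA2 by 0.43, while P4HA1 (0.28, adjusted p = 0.091) did not pass and stood at 9.75 in replicate 1 against 8.67 to 9.07 in the others.

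Most genes of glucose uptake and upper glycolysis rose, by amounts that differed between some isoforms. Of 11 members 9 rose under 100 µM zoledronate, against 15.2% of all probe sets. PFKFB4, which makes the activator of phosphofructokinase, read 8.70, 9.10, 8.89 and 8.99 against 7.13, 7.21, 7.25 and 7.42. The groups did not overlap, at 1.67 ± 0.13 (SE, adjusted p = 2.08e-09). ALDOC, the brain form of aldolase, read 8.40, 9.11, 9.04 and 8.81 against 6.91, 7.04, 7.34 and 7.55. It did not overlap, at 1.63 ± 0.14 (adjusted p = 9.84e-09). The high-affinity glucose transporter SLC2A3 also rose by 1.63, PFKFB3 by 0.81, the liver form of phosphofructokinase PFKL by 0.56, and the hexokinases HK2 and HK1 by 0.50 and 0.41. The isomerase GPI and the widespread aldolase ALDOA rose by 0.23 and 0.18. The transporter SLC2A1 (0.06) and the platelet form of phosphofructokinase PFKP (0.11) did not pass.

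PFKFB4, ALDOC and SLC2A3 were the 3 members of this group that rose with fluvastatin at 24 h. Of all probe sets 6.41% were higher there. ALDOC read 8.22, 7.69, 8.11 and 8.05 with fluvastatin against 6.88, 7.25, 7.62 and 7.49, without overlap, for a change of 0.71 ± 0.14 (SE, adjusted p = 0.0031). PFKFB4 read 8.31, 7.57, 7.97 and 7.91 against 7.13, 7.35, 7.52 and 7.42, also without overlap, for 0.58 ± 0.13 (adjusted p = 0.0060). SLC2A3 rose by 0.75, and none of the 3 passed without replicate 1. Zoledronate at 30 µM for 48 h also raised ALDOC by 0.87, SLC2A3 by 0.65, PFKFB4 by 0.62 and PFKFB3 by 0.30. In that comparison 3.07% of all probe sets were higher. ALDOC read 7.96, 8.99, 8.55 and 8.57 there against 6.95, 7.69, 7.71 and 8.22, with each treated array above its own control though the groups overlapped.

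In lower glycolysis 3 of 6 members rose under 100 µM zoledronate, against 15.2% of all probe sets, and ENO2 stood apart. ENO2, the neuronal enolase, read 10.12, 10.13, 10.07 and 9.89 against 8.63, 8.67, 8.67 and 8.77. Its groups were far apart, at 1.37 ± 0.10 (SE, adjusted p = 1.49e-09). PGK1, phosphoglycerate kinase, read 12.69, 12.81, 12.72 and 12.76 against 12.37, 12.29, 12.37 and 12.27. All treated arrays were higher, by a smaller 0.42 ± 0.05 (adjusted p = 1.08e-06). Lactate dehydrogenase A (LDHA) rose by 0.33. TPI1 (0.15, adjusted p = 0.073), PGAM1 (0.15, adjusted p = 0.27) and the widespread enolase ENO1 (0.04, adjusted p = 0.61) did not pass. The second TPI1 probe set gave 0.002, and the other 4 PGAM1 probe sets gave 0.14 to 0.16.

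ENO2 was also the member of lower glycolysis that rose with fluvastatin at 24 h and at 48 h of 30 µM zoledronate. Of all probe sets 6.41% and 3.07% were higher in these 2 groups. With fluvastatin at 24 h ENO2 read 9.23, 8.87, 8.80 and 8.82 against 8.43, 8.62, 8.59 and 8.52, without overlap, for 0.39 ± 0.10 (SE, adjusted p = 0.018). It did not pass without replicate 1, which stood highest. At 48 h of 30 µM zoledronate it read 9.39, 8.80, 9.19 and 9.28 against 8.59, 8.71, 8.46 and 8.60, again without overlap, for 0.57 ± 0.10 (adjusted p = 0.0016). PGK1 did not pass in either group, at 0.10 with fluvastatin and 0.15 at 48 h.

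The pyruvate dehydrogenase kinases switch off the enzyme that feeds pyruvate into mitochondria. PDK1 read 9.93, 10.34, 10.31 and 10.24 under 100 µM zoledronate against 8.64, 8.80, 9.14 and 9.10. No treated array reached down to the controls, and the change was 1.28 ± 0.09 (SE, adjusted p = 3.17e-10), or 2.43-fold. PDK3 read 8.22, 8.24, 8.35 and 8.52 against 7.92, 7.93, 7.99 and 8.19, and did not overlap, at 0.32 ± 0.07 (adjusted p = 7.21e-04). PDK1 read 9.09, 8.29, 8.66 and 8.70 with fluvastatin at 24 h against 8.39, 8.12, 8.29 and 8.41. Replicate 2 was inside the control range, and the change of 0.38 ± 0.09 (adjusted p = 0.0078) did not pass without replicate 1. PDK1 at 48 h of 30 µM zoledronate rose by 0.36 (adjusted p = 0.013), with overlap, and this too did not pass without replicate 1, whose control of 8.64 lay below the others (9.39 to 9.51). PDK3 did not pass in these 2 groups (0.16 and 0.09).

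**Figure D3:**
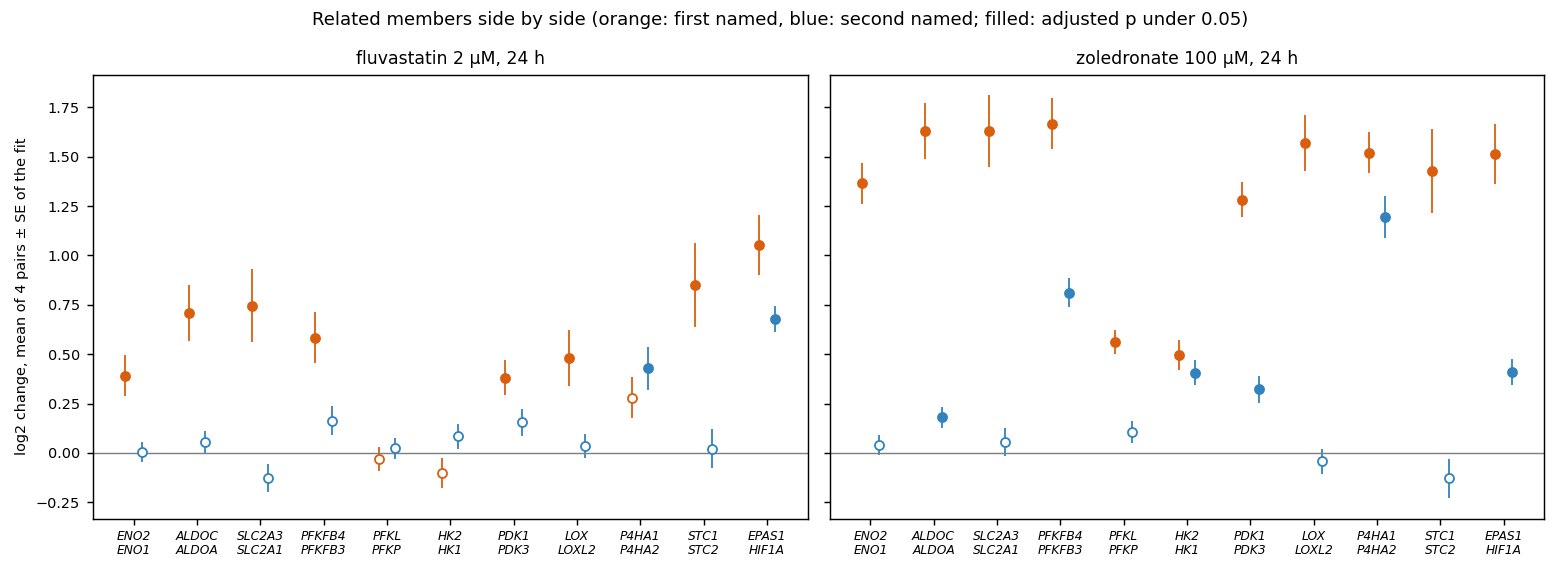
Log2 change (mean of 4 pairs ± SE of the fit) of 11 pairs of related genes with fluvastatin at 24 h and 100 µM zoledronate at 24 h (orange: upper name, blue: lower name, filled: adjusted p under 0.05). Under 100 µM zoledronate the pairs ENO2 and ENO1, ALDOC and ALDOA, SLC2A3 and SLC2A1, and LOX and LOXL2 lie furthest apart, together with STC1 and STC2.

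Within families the changes were thus unequal, as the plot of related genes shows. Under 100 µM zoledronate the mean difference of changes was 1.33 ± 0.19 (SD, 4 pairs) for ENO2 over ENO1, 1.45 ± 0.28 for ALDOC over ALDOA, 1.57 ± 0.34 for SLC2A3 over SLC2A1 and 1.56 ± 0.49 for STC1 over STC2. It was 0.85 ± 0.12 for PFKFB4 over PFKFB3, 0.96 ± 0.20 for PDK1 over PDK3 and 0.46 ± 0.09 for PFKL over PFKP. Each of these was positive in 4 of 4 pairs. The differences were smaller for HK2 and HK1 (0.09 ± 0.15), BNIP3 and BNIP3L (0.14 ± 0.24), PLOD1 and PLOD2 (0.04 ± 0.07) and EGLN3 and EGLN1 (0.09 ± 0.10), each positive in 3 of 4 pairs. These are descriptions with no test, and probe sets can differ in how far their signal follows the RNA. With fluvastatin at 24 h ENO2 over ENO1 (0.38 ± 0.30), ALDOC over ALDOA (0.65 ± 0.40) and SLC2A3 over SLC2A1 (0.87 ± 0.55) were again positive in 4 of 4 pairs, while HK2 lay below HK1 in 4 of 4 (−0.19 ± 0.02).

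Differences between treatments were tested directly. Fluvastatin at 24 h was compared with 30 µM zoledronate of the same lot and time, where 11 of 40 members were higher with fluvastatin and 0 lower, against 6.64% of all probe sets in either direction, 3.88% higher and 2.76% lower. They were HIF1A (0.66), EPAS1 (0.92), VEGFA (0.78), ALDOC (0.68), NDRG1 (1.14), P4HA2 (0.43), ANKRD37 (0.46), STC1 (0.74), BNIP3L (0.30), PFKFB4 (0.43) and SLC2A3 (0.60). Without replicate 1, 2 passed (HIF1A and EPAS1), without replicate 3 or replicate 4, 6 passed each, without the pairing 4, and with the compared arrays alone 0. Over all 21214 probe sets 364 passed without the pairing, against 1408 with it. Between the fluvastatin times 0 members passed, as did 0% of all probe sets (8 members and 2337 probe sets at an unadjusted p under 0.05). Between 30 µM zoledronate at 48 h and at 24 h 0 members passed, against 0.396% of all probe sets, and 16 members and 3198 probe sets had an unadjusted p under 0.05. ALDOC (0.85, adjusted p = 0.063) and BNIP3 (0.47, adjusted p = 0.078) came closest. The rise at 48 h was thus not shown to differ from the values at 24 h.

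The effect of 100 µM zoledronate exceeded that of 30 µM at the same 24 h for 29 of 40 members, against 19.8% of all probe sets in either direction and 8.87% higher. NDRG1 (3.04), ALDOC (1.61), LOX (1.53), P4HA1 (1.51) and PFKFB4 (1.51) differed the most. It also exceeded the effect of 30 µM at 48 h for 21 of 40, against 7.95% in either direction, 3.71% higher and 4.24% lower, led by NDRG1 (1.64) and P4HA1 (1.10). For this second comparison 12 passed without replicate 3, NDRG1 not among them, and 12 with the compared arrays alone. Calls over all probe sets fell from 1686 to 631 and 564 in these fits. STC1, VEGFA and HIF1A were not among the 21. The doses at 24 h sit in different lots, so lot and dose cannot be told apart in the first of these.

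The 2 agents were also set against each other at 24 h, in a contrast added after the values had been seen: the effect of 100 µM zoledronate minus that of 2 µM fluvastatin, which differ in dose and lot as well as in agent. It was positive and past the threshold for 22 of 40 members and negative for 0, against 5.56% of all probe sets in either direction, 1.53% higher and 4.04% lower. BNIP3 (1.12 ± 0.12), P4HA1 (1.24 ± 0.15), PDK1 (0.90 ± 0.12) and PFKL (0.59 ± 0.09, SE) had the smallest p. Among the members with the largest changes under fluvastatin, NDRG1 (1.90 ± 0.37) and SLC2A3 (0.88 ± 0.26) passed, while EPAS1 (0.46 ± 0.22, adjusted p = 0.23), STC1 (0.58 ± 0.30, adjusted p = 0.28) and VEGFA (adjusted p = 0.98) did not. HIF1A had the lowest value of the 40, −0.26 ± 0.09, with fluvastatin the higher one, and did not pass (adjusted p = 0.099). Without replicate 2 the count was 11 and without replicate 3 it was 13. The call of NDRG1 was lost without replicate 2, and that of SLC2A3 without replicate 2, 3 or 4 and without the pairing.

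**Figure D4:**
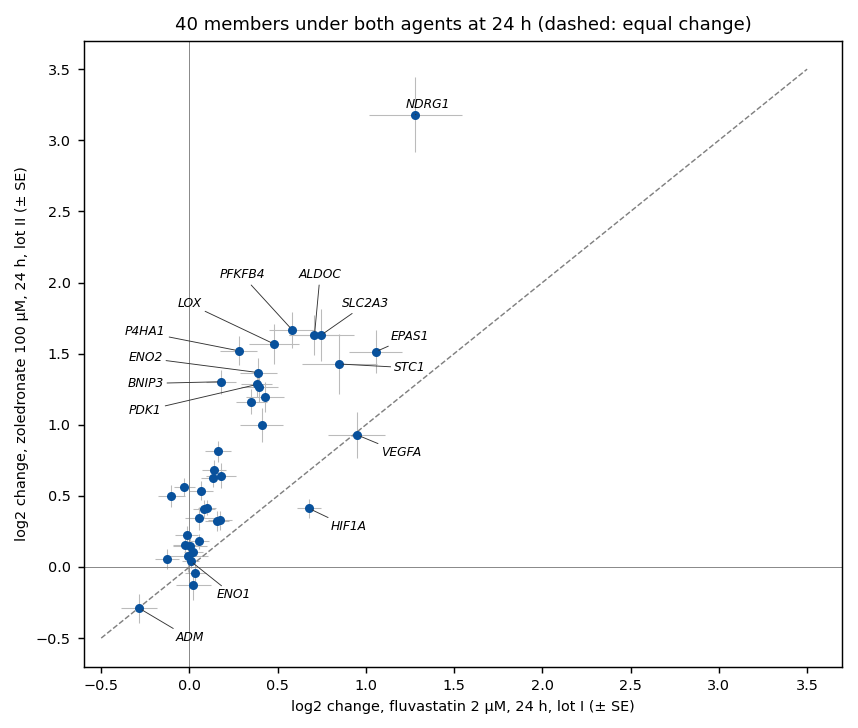
Log2 change of the 40 members with 2 µM fluvastatin (x axis, lot I) and with 100 µM zoledronate (y axis, lot II) at 24 h. Points are means of 4 pairs ± SE of the fit, and the line of equal change is dashed. Most members lie above the line, VEGFA and ADM lie close to it and HIF1A lies furthest below it.

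Genes of the same pathways outside the 40 were read from further lists. Of 44 other known HIF targets 26 rose and 2 fell under 100 µM zoledronate, with a median change of 0.44, where 15.2% of all probe sets were higher and 16.3% lower. PPFIA4 (1.14), INSIG2 (0.91), which holds back sterol synthesis, the clock repressor BHLHE40 (2.47) and the lipoprotein receptor VLDLR (2.01) had the smallest p. PPP1R15A and MET were the 2 that fell, by 0.59 and 0.33. With fluvastatin at 24 h 11 of the 44 rose and 1 fell (IGFBP3, −0.26), where 6.41% of all probe sets were higher and 3.46% lower. At 48 h of 30 µM zoledronate 6 rose and 1 fell (PPP1R15A, −0.80), where 3.07% were higher and 4.16% lower.

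In the smaller lists the called share lay between 25% and 43.8%, beside the 31.4% of all probe sets called under 100 µM zoledronate. Of 15 other regulators of the pathway, 2 rose under 100 µM zoledronate, the partner subunit ARNT (0.52) and the coactivator EP300 (0.22), and 4 fell, ARNT2 (−0.53), the VHL complex genes ELOC (−0.44) and CUL2 (−0.26), and the hydroxylase EGLN2 (−0.22). Of 16 other glycolysis enzymes 3 rose and 4 fell. The phosphoglucomutases went apart, PGM1 up by 0.72 and PGM2 down by 0.72, the muscle enolase ENO3 rose by 0.53 and LDHB, the second lactate dehydrogenase, fell by 0.28. PKM, pyruvate kinase, rose by 0.30. Of 12 genes for pyruvate entry and oxidation, PC (pyruvate carboxylase, 1.12), PDK4 (1.40) and PDK2 (0.44) rose and PDHX, a part of pyruvate dehydrogenase, fell by 0.36. PDK4 also rose with fluvastatin at 24 h, by 1.20. Of 4 further mitochondrial genes (COX4I1, COX4I2, LONP1 and ISCU), 1 fell, ISCU (−0.19).

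**Figure D5:**
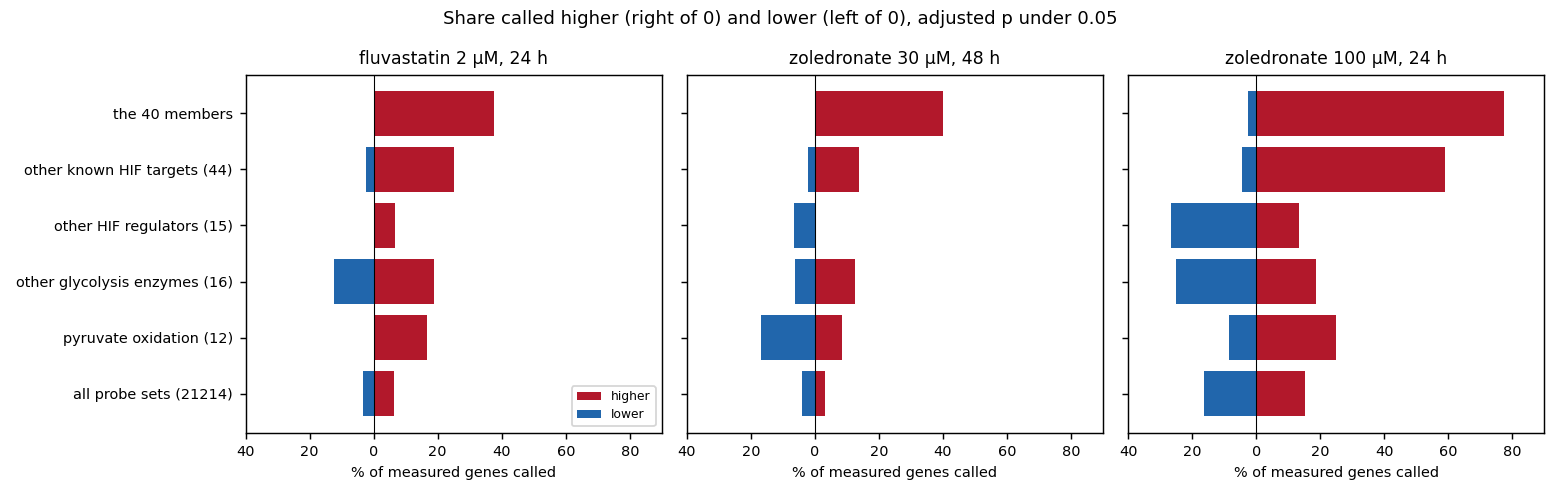
Percent of measured genes called higher (right, red) and lower (left, blue) at an adjusted p under 0.05, for the 40 members, 4 further lists and all 21214 probe sets, in the 3 groups with most calls. Under 100 µM zoledronate 31 of 40 members and 26 of 44 other HIF targets are called higher, against 15.2% of all probe sets.

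Untreated cells of different times were compared as well. Of the 40 members 0 differed between 24 h and 12 h controls of lot I, where 0% of all probe sets passed, and 0 between 48 h and 24 h controls of lot II, where 1.46% passed. At an unadjusted p under 0.05 there were 1 and 5 members, and 1000 and 2757 probe sets. With the replicate number as a block 2 members passed between the lot II control times (ADM and LOX), and without replicate 1 also 2 (STC2 and LOX).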

How the data were processed

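RNA of 40 MDA-MB-231 dishes was hybridised to Affymetrix gene arrays, 4 per group in 10 groups. Per the submitters' processing notes, the authors used RMA in Affymetrix Power Tools 1.10.2 and limma. The deposited values are log2 signals, 1 for each probe set and array, of the kind RMA gives. Whether the lots were normalized together is not given in the sources used here, nor is the genome build. Of 33297 probe sets, 21214 carried a symbol in the platform annotation and 19460 carried exactly 1. A member's value is its brightest probe set with exactly 1 symbol, or, for PGAM1, with 2 symbols.

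Changes were fitted by lmFit and eBayes of limma 3.58.1 under R 4.3.3 over all 40 arrays, with 16 blocks, 1 per lot, time and replicate number, since the design text pairs treated and control cells by day, and 6 treatment effects (18 residual degrees of freedom). P-values were two-sided and adjusted by Benjamini-Hochberg over 21214 probe sets, with a threshold of 0.05. Controls of different times were compared by group means without blocks (30 residual degrees of freedom). The pairing was checked from how far arrays of the same number departed together from the means of their groups (Pearson correlation over probe sets). In lot I each pair had r of 0.18 or more. In lot II r ran from −0.28 to 0.53 at 48 h and from −0.08 to 0.25 at 100 µM. The pairing there thus rests on the design text and on reading equal replicate numbers as the same day. The sample titles do not state that match. The labels call the replicates independent without saying of what, so that p-values measure the spread between these dishes. The number of arrays limits the precision. The fit was tested on simulated data.

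The members and gene lists were chosen with earlier results of these data known. Arrays are given for the 2 members of each role group with the largest change under 100 µM zoledronate that passed in 4 of 4 pairs, and for HIF1A, EPAS1, EGLN1, EGLN3 and VEGFA, and every other member is named once or more. From other lists up to 4 genes with the smallest p and those going against their list are named. PKM, CUL2 and EP300 lie outside this rule and were picked with their values in view. The alternatives tried were no replicate block, only the compared arrays, renewed quantile normalization, median centring, removal of the dimmest probe sets, 1 probe set per gene, and each replicate left out.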

Additional observations from a re-analysis of the deposited data

Results flagged for a closer look

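In 9 of 170 groups of 4 arrays, tested for 17 members, 1 array stood far from the other 3 by Dixon's criterion, and chance alone gives about 1 in 20. ENO2 read 9.23 in replicate 1 of fluvastatin at 24 h, against 8.80 to 8.87 in the other arrays. BNIP3 read 10.82 in the same array, against 10.28 to 10.35. ALDOC read 7.07 in replicate 1 of fluvastatin at 12 h, against 7.44 to 7.49. BNIP3 read 10.00 in replicate 1 of the 12 h controls, against 10.19 to 10.20. CA12 read 7.87 in replicate 2 of fluvastatin at 24 h, against 8.19 to 8.25, and 7.81 in replicate 2 of 30 µM zoledronate at 24 h, against 8.14 to 8.21. P4HA1 read 10.10 in replicate 1 of 100 µM zoledronate, against 10.39 to 10.44. PDK1 read 8.64 in replicate 1 of the 48 h controls, against 9.39 to 9.51, and PDK3 read 8.07 in replicate 2 of them, against 7.85 to 7.88.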

How the results depend on the processing

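Counts of called members under 100 µM zoledronate (32) stayed within 1.5 times under the 10 alternatives, as did those of its excess over 30 µM at 24 h (29), and 0 members were called under any of them for 30 µM at 12 h and 24 h. For fluvastatin at 12 h the count of 1 became 0 without the replicate block and with only the compared arrays, and 2 after median centring and after removal of the dimmest probe sets. Over all probe sets 173 became 24 and 12 in the former fits, and 252 and 281 in the latter. For fluvastatin at 24 h the count of 15 became 8 without the replicate block and 0 with only the compared arrays. Calls over all probe sets went from 2092 to 714 and 2. For 30 µM zoledronate at 48 h the count of 16 became 8 and 0 in these fits, and that over all probe sets went from 1533 to 357 and 0. For fluvastatin against 30 µM zoledronate at 24 h the count of 11 became 4 and 0. The excess of 100 µM over 30 µM at 48 h (21) became 12 with only the compared arrays, where calls over all probe sets went from 1686 to 564. The excess of 100 µM over fluvastatin (22) became 14 without the block. The count of 0 for 30 µM at 48 h against 24 h became 2 after renewed quantile normalization and 2 after removal of the dimmest probe sets, and that of 0 between lot II controls became 2 with a replicate block. With each replicate left out in turn, the counts ran from 0 to 0 for fluvastatin at 12 h, 3 to 16 at 24 h, 9 to 17 for 30 µM zoledronate at 48 h, 29 to 31 under 100 µM, 2 to 11 for fluvastatin against 30 µM, 12 to 19 for 100 µM against 30 µM at 48 h, 11 to 23 for 100 µM against fluvastatin, 0 to 2 for 48 h against 24 h and 0 to 2 between lot II controls. Of the single values of named members under alternatives, 2237 kept their direction and side of the threshold, 120 lost a call and 23 gained one, with no reversal of a called value. Fewer arrays give the fits of only the compared arrays fewer degrees of freedom, and the cause of the other shifts was not tested. Removing dim probe sets also removed STC2, and 1 probe set per gene removed PGAM1.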
